A study of Rattus norvegicus with 12 samples.

Results

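Circular DNA on the zinc finger protein genes of rat back skin is described here across untreated and irradiated libraries. The members are the listed extrachromosomal circular DNAs (eccDNA) that the deposited annotation places in an exon or intron of a gene whose symbol is Zfp or Znf followed by a number. They came to 716 circles of the 83890 genic ones (0.853%), out of 228353 listed eccDNA, and lay on 172 genes of 13560 with a genic circle. Of these genes, 169 carry a Zfp symbol and 3 a Znf symbol, and 2 are marked as pseudogenes by the ending ps1. The gene symbols come from the authors' annotation, so a zinc finger gene filed under another name is not a member.

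The skin came from the backs of wild-type Sprague Dawley (SD) rats kept under specific-pathogen-free housing, in 3 groups of 4 libraries. Control skin was untreated. The 5 Gy x2 group was given 2 weekly fractions of 5 Gy of electrons and the 5 Gy x4 group 4 of them, and skin was taken on day 7 after the last fraction. The labels give neither the age of the rats nor the time at which control skin was taken. A larger total dose here also means later sampling, so dose and time cannot be told apart. Nothing in the labels ties libraries to separate animals, so p-values measure the spread between libraries, which may be technical.

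Circle-seq removes linear DNA with exonuclease and sequences what remains. A circle is recognised by reads that cross its junction, called supporting reads, and it was counted as present in a library that had at least 1 of them. The eccDNA of a library were backed by 34499 to 397674 supporting reads, and the number of genic circles ran from 1350 in control replicate 4 to 17285 in 5 Gy x4 replicate 3. Control replicate 4 and 5 Gy x2 replicate 4, with 3601 and 6326 eccDNA, held the fewest circles of their groups. Total sequencing depth is unknown, and supporting reads are amplified without molecular identifiers, so intervals given below cover counting error only.

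Zinc finger proteins of the C2H2 type form the largest family of transcription factors in mammals. Each finger is a short fold held by a zinc ion, and arrays of fingers read DNA sequence. Many members add a KRAB domain, which recruits the corepressor TRIM28 and heterochromatin enzymes and silences transposable elements, and these genes often sit in tandem clusters. Their fingers are commonly encoded by a single long last exon, whereas the introns before it vary widely in length.

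On average more zinc finger circles were listed in irradiated than in control skin, and so were genic circles as a whole, which averaged 12341.5 per library in 5 Gy x4 and 7432.75 in 5 Gy x2 skin, against 2615.75 in control skin. Control libraries 1 to 4 held 15, 23, 37 and 17 zinc finger circles. The 5 Gy x2 libraries held 61, 92, 98 and 18, and the 5 Gy x4 libraries 68, 124, 141 and 76. Every 5 Gy x4 library lay above every control library, while 5 Gy x2 replicate 4 lay within the control range. The mean was 102.25 ± 35.8 in 5 Gy x4 skin against 23 ± 9.93 in control skin (SD, n = 4 each), 4.45-fold, with an exact permutation p of 0.0286, the smallest that 4 libraries against 4 allow, and an adjusted p of 0.0857. In 5 Gy x2 skin the mean was 67.25 ± 36.6, 2.92-fold the control mean (exact permutation p = 0.0857, adjusted p = 0.220). Between the doses, 5 Gy x4 skin stood at 1.52-fold the number of 5 Gy x2 skin (exact permutation p = 0.229, adjusted p = 0.411). None of these comparisons passed an adjusted threshold of 0.05. At equal supporting reads, 34499 drawn per library, control skin averaged 18.6 ± 4.27 circles, 5 Gy x2 skin 42.1 ± 18.4 and 5 Gy x4 skin 52.5 ± 9.32 (SD, n = 4 each).

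The zinc finger share of genic circles overlapped between all groups. It was 0.827%, 0.655%, 0.977% and 1.26% in control libraries 1 to 4. In 5 Gy x2 libraries it was 0.921%, 0.859%, 0.976% and 0.764%, and in 5 Gy x4 libraries 0.824%, 0.750%, 0.816% and 1.04%. The highest and the lowest share were both in control skin. The 95% exact binomial interval ran from 0.735% to 2.01% in control replicate 4 and from 0.624% to 0.894% in 5 Gy x4 replicate 2. The mean share was 0.858 ± 0.126% in 5 Gy x4 and 0.880 ± 0.0906% in 5 Gy x2 skin, against 0.930 ± 0.256% in control skin (SD, n = 4 each). The exact permutation p was 0.629 for 5 Gy x4 and 0.743 for 5 Gy x2 against control, and a difference between groups was not detectable at this depth. Without control replicate 4 both differences turned positive, to 0.0380 points for 5 Gy x4 and 0.0604 points for 5 Gy x2.

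**Figure D1:**
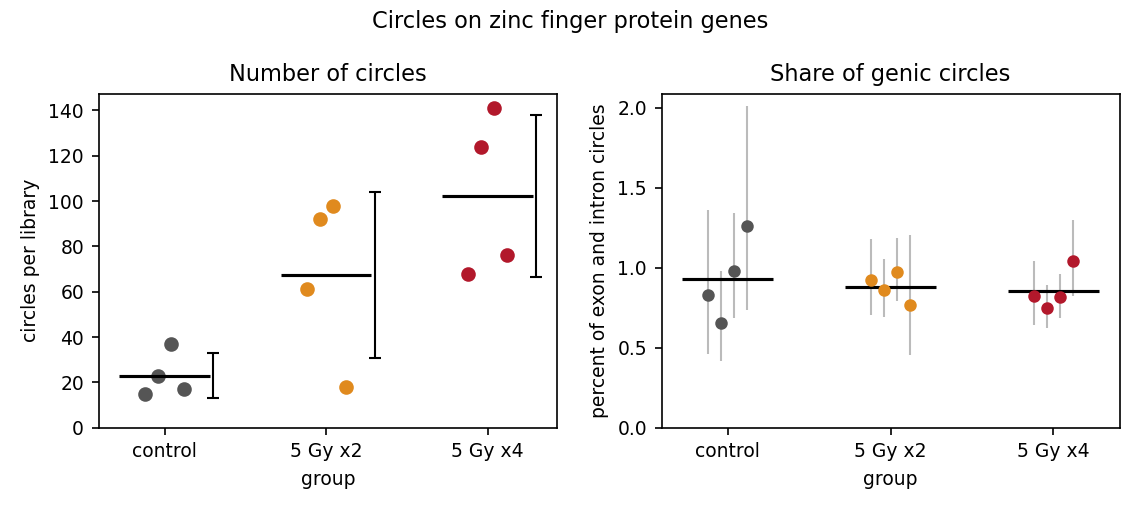
Circles on zinc finger protein genes by group, in dose order. The left panel plots circles per library, with a line at the mean and a bar of 1 SD (n = 4 libraries per group); the right panel plots the percent of exon and intron circles of each library that lie on these genes, with its 95% exact binomial interval and a line at the group mean. All 5 Gy x4 libraries lie above the control libraries on the left, whereas the shares on the right overlap.

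The number of zinc finger genes with a circle went the same way as the number of circles. It was 14, 22, 32 and 15 in control libraries, 44, 58, 51 and 15 in 5 Gy x2 libraries, and 44, 71, 79 and 50 in 5 Gy x4 libraries. The 5 Gy x4 mean of 61 ± 16.7 genes stood 2.94-fold above the control mean of 20.8 ± 8.30 genes (SD, n = 4 each, exact permutation p = 0.0286, adjusted p = 0.0857). With libraries pooled, 141 of the 172 genes had a circle in 5 Gy x4 skin, 104 in 5 Gy x2 skin and 57 in control skin. In all 3 groups 35 genes had one. Circles were found in irradiated skin alone for 115 of the 172 genes (66.9%), beside 63.4% of all 13560 genes with a genic circle, and in control skin alone for 10 (5.81%), beside 2.64% of all genes. Irradiated libraries list more circles, so these counts are not a result about zinc finger genes.

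Most zinc finger circles were intronic, 578 of the 716 entries, and 138 were exonic. Over all lengths, exonic circles nevertheless took a larger share of zinc finger circles than of other genic circles in each of the 12 libraries. Within the 330 to under 420 bp class this did not hold in every irradiated library, as given below. The zinc finger mean over libraries was 23.8 ± 10.4% exonic, against 11.4 ± 2.25% among other genic circles (SD, n = 12). The difference of 12.4 points had a permutation p of 0.000488 by sign flips of the within-library difference, the smallest that 12 libraries allow, and an adjusted p of 0.00244 over 5 measures. The other 4 within-library differences did not pass (adjusted p from 0.264 to 0.894). They were −2.38 points in the share of 330 to under 420 bp (permutation p = 0.214), 18.04 bp in median length (p = 0.105), 0.603 in supporting reads per circle (p = 0.894) and 3.85 points in the share of circles found in more than 1 library (p = 0.160).

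The excess of exonic circles was widest in control skin. The exonic share of zinc finger circles was 26.7%, 39.1%, 32.4% and 47.1% in control libraries 1 to 4, from 4, 9, 12 and 8 exonic circles. It was 18.03%, 17.4%, 16.3% and 16.7% in 5 Gy x2 libraries, from 11, 16, 16 and 3 exonic circles. In 5 Gy x4 libraries it was 17.6%, 18.5%, 19.9% and 15.8%, from 12, 23, 28 and 12 exonic circles. Every irradiated library lay below every control library. The counts behind the control values are small: the 95% exact binomial interval of control replicate 1 ran from 7.79% to 55.1%, and that of 5 Gy x4 replicate 3 from 13.6% to 27.4%. The mean was 17.96 ± 1.71% in 5 Gy x4 and 17.1 ± 0.762% in 5 Gy x2 skin, against 36.3 ± 8.78% in control skin (SD, n = 4 each, exact permutation p = 0.0286 for each dose against control, adjusted p = 0.0857 over 18 tests). Between 5 Gy x4 and 5 Gy x2 the exonic share differed by 0.856 points (exact permutation p = 0.429).

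Among other genic circles the groups lay in the opposite order. Their exonic share was 12.999 ± 0.565% in 5 Gy x4 and 12.4 ± 0.95% in 5 Gy x2 skin, against 8.90 ± 2.09% in control skin (SD, n = 4 each, exact permutation p = 0.0286 for each dose). The within-library excess of zinc finger circles was 4.96 ± 1.23 points in 5 Gy x4 and 4.75 ± 1.55 points in 5 Gy x2 skin, against 27.4 ± 10.5 points in control skin. This difference of differences, tested after the data were seen, was −22.5 points for 5 Gy x4 and −22.7 points for 5 Gy x2 (exact permutation p = 0.0286 each, adjusted p = 0.075 over 21 tests), and 0.216 points between the doses (exact permutation p = 0.743). Against control, both exonic shares already lay apart in opposite directions, so this p had to reach the same value and adds no separate support. Without control replicate 4 the difference of differences was −17.8 and −18.1 points. For circles with a single gene in the annotation it was −18.1 points for 5 Gy x4 and −16.9 for 5 Gy x2 (exact permutation p = 0.0286 each). The exonic share of those zinc finger circles alone was then 15.6 ± 3.45% in 5 Gy x4 and 16.2 ± 2.41% in 5 Gy x2 skin, against 29.2 ± 9.32% in control skin (exact permutation p = 0.0857 each). Among circles labelled hconf, a label the tables do not define, the difference of differences was −18.8 points for 5 Gy x4 (exact permutation p = 0.0857) and −15.0 for 5 Gy x2 (exact permutation p = 0.114).

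**Figure D2:**
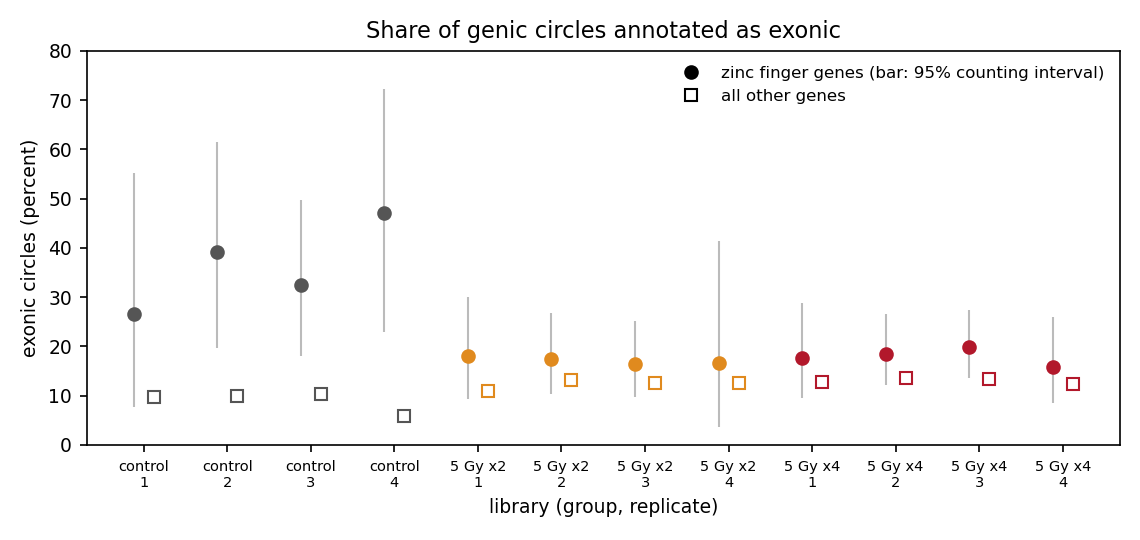
Exonic share of genic circles in each of the 12 libraries, in dose order. Filled circles are zinc finger genes with their 95% exact binomial interval and open squares are all other genes. The filled circle lies above the square in every library, by 27.4 points on average in control skin and by under 10 points in each irradiated library.

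The other C2H2 families, such as the Klf, Sp, Egr, Gli and Zbtb genes, did not show the same exonic share. They are a list of genes named by family, and 114 of them carried 670 listed circles. Their exonic share was 10.5 ± 5.83% in 5 Gy x4, 10.1 ± 3.27% in 5 Gy x2 and 4.12 ± 2.88% in control libraries (SD, n = 4 each). The Zfp and Znf genes lay above them in 12 of 12 libraries, by 15.5 ± 14.0 points (permutation p = 0.000488 by sign flips, a comparison added after the data were seen). By group the difference was 7.48 ± 4.62 points in 5 Gy x4, 6.96 ± 3.23 in 5 Gy x2 and 32.2 ± 11.4 in control libraries. The control share of the other families rests on few circles, 3 exonic among 62 counted over the control libraries. Their share of genic circles was 0.798 ± 0.0777% in 5 Gy x4 and 0.784 ± 0.0953% in 5 Gy x2 skin, against 0.598 ± 0.163% in control skin (exact permutation p = 0.0857 and 0.114, in that order). The genes of these families with most circles were Glis3, a Gli-similar factor of pancreatic beta cells, with 49 calls (a call is 1 circle in 1 library), Zbtb20 with 42, Klf12 with 39, and Zfpm2, a GATA cofactor, with 39.

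The exonic circles of control skin were spread over many genes. They were 28 listed circles on 27 genes, called 33 times, with a median length of 415 bp, the shortest of 106 bp and the longest of 1328 bp. Found in several libraries were 8 of the 28, and 22 had a single gene in the annotation. Zfp950 gave the longest, a 1328 bp circle at chr1:282490903-282492230 of rn6. It had 12, 22 and 4 supporting reads in control replicates 2, 3 and 4, and none in any of the 8 irradiated libraries; the total in the deposited table exceeds these counts by 6. A 640 bp circle of Zfp771 and a 636 bp circle of Zfp763 were each found in 2 control libraries and in no irradiated one. A 559 bp circle of Zfp40 had 97 supporting reads over 1 control library and a 5 Gy x2 library, and a 541 bp circle of Zfp583 was found in 1 control library and a 5 Gy x4 library.

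Over all groups, Zfp36l3 had the most exonic calls, 7 from 5 exonic entries within chrX:73475656-73476775, of which control skin gave 2, 5 Gy x2 skin 2 and 5 Gy x4 skin 3. Zfp36l3 is a CCCH zinc finger protein of rodents that binds messenger RNA, so the symbol rule does not select C2H2 genes alone. The related CCCH genes Zfp36, Zfp36l1 and Zfp36l2 match the symbol rule and had no circle. Zfp629 followed with 5 exonic calls, but 10 of its 15 entries were shared with another gene such as Srcap. Zfp292, Zfp316, Zfp46 and Zfp532 had 4 exonic calls each, with 1 of the 4 in control skin for every one of these genes. An exonic circle was found on 97 of the 172 genes, and 42 genes had exonic circles only. Znf750, a regulator of terminal differentiation of epidermal keratinocytes, had 1 exonic circle of 380 bp, which overlapped Tbcd as well and was found in 5 Gy x4 replicate 1 with 4 supporting reads.

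Zinc finger circles were short, with quartiles of 335, 361 and 386.25 bp against 329, 359 and 381 bp for other genic circles, and a range of 64 to 11114 bp. Irradiated libraries held more of the 330 to under 420 bp class, a length range chosen with earlier results of these data known. Its share of zinc finger circles was 26.7%, 17.4%, 43.2% and 11.8% in control libraries. It was 63.9%, 71.7%, 68.4% and 50% in 5 Gy x2 libraries, and 64.7%, 72.6%, 73.0% and 67.1% in 5 Gy x4 libraries. Control libraries did not overlap with irradiated ones. The mean was 69.4 ± 4.11% in 5 Gy x4 and 63.5 ± 9.56% in 5 Gy x2 skin, against 24.8 ± 13.8% in control skin (SD, n = 4 each, exact permutation p = 0.0286 for each dose, adjusted p = 0.0857). Other genic circles of this class made up 67.4 ± 2.56% in 5 Gy x4 and 65.9 ± 4.51% in 5 Gy x2 skin, against 31.5 ± 11.6% in control skin.

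Of 6 length classes, that of 420 to under 1000 bp carried the highest exonic share of zinc finger circles in control skin. In control skin 15 of its 23 calls were exonic (65.2%), whereas 7 of 25 were exonic in 5 Gy x2 skin (28%) and 7 of 33 in 5 Gy x4 skin (21.2%). Other genic circles of this class were 7.77% exonic in control skin, 13.8% in the 5 Gy x2 and 14.3% in the 5 Gy x4 group. In the 330 to under 420 bp class, 9 of 26 control calls were exonic (34.6%), 28 of 181 in 5 Gy x2 (15.5%) and 52 of 288 in 5 Gy x4 skin (18.1%). These pooled shares are a description, without a test. Within the 330 to under 420 bp class the difference of differences was −25.0 points for 5 Gy x4 and −27.3 for 5 Gy x2 (exact permutation p = 0.0286 each). The control side of this value rests on few circles: the control libraries held 4, 4, 16 and 2 zinc finger circles of the class, with exonic shares of 50%, 25%, 31.25% and 50%. Over the other lengths it was −19.1 points (exact permutation p = 0.0857) and −17.0 points (exact permutation p = 0.114). The within-library excess inside the 330 to under 420 bp class was 39.5, 13.3, 18.4 and 42.4 points in control libraries 1 to 4. It was 0.465, 6.45, −0.0434 and −2.55 points in 5 Gy x2 libraries, and 4.34, 1.47, 9.44 and −1.67 points in 5 Gy x4 libraries. At these lengths the excess was thus not found in every irradiated library.

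**Figure D3:**
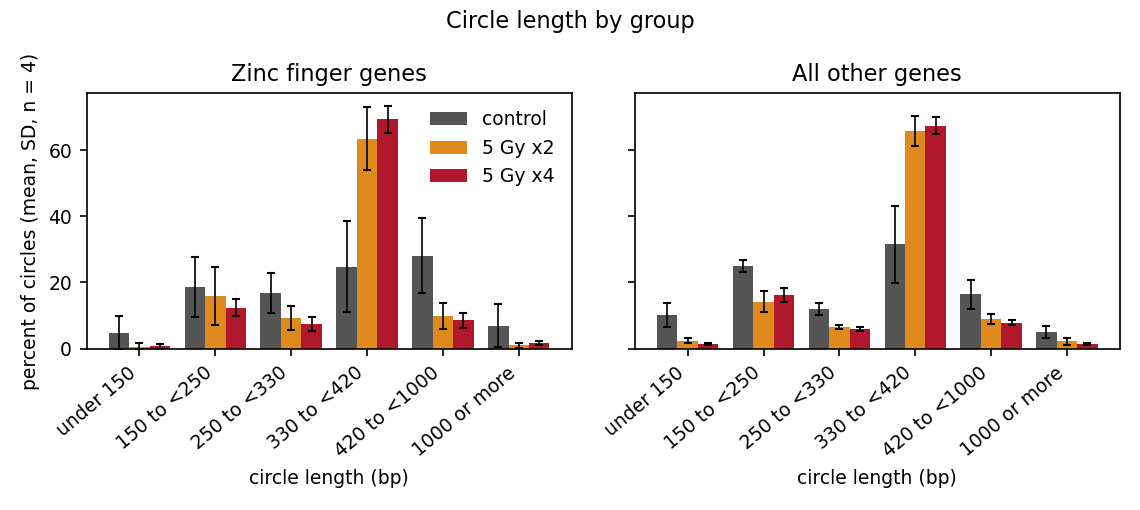
Length of genic circles by group, with the percent of circles in each of 6 length classes (bp) as the mean of 4 libraries and a bar of 1 SD; zinc finger genes are on the left and all other genes on the right, with control, 5 Gy x2 and 5 Gy x4 from left to right in each class. In both panels the 330 to under 420 bp class is the largest in irradiated skin, with zinc finger means of 63.5% and 69.4% against 24.8% in control skin.

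Zinc finger circles were spread unevenly over the genes. Of the 172 genes, 65 had 1 call, 59 had 2 to 4, 30 had 5 to 9, and 18 had 10 or more. The 12 genes with most calls held 278 of 770 calls (36.1%), a share that was not computed for other genes. The median was 2 calls per zinc finger gene and 3 for the 13388 other genes, and 10 or more calls were found on 10.5% of zinc finger genes and 18.6% of the others. These numbers are per gene and not per length, since gene lengths of the build were not used here, and levels of different genes are therefore not compared. A zinc finger circle was found in at least 6 libraries for 25 genes, and in all 12 for Zfp532 alone.

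Zfp385d and Zfp385b, paralogues of one small family, lay among the genes with most circles. Zfp385d, with circles within chr15:6203580-6567213, had 0, 0, 2 and 0 circles in control libraries, 2, 6, 6 and 0 in 5 Gy x2 libraries and 3, 6, 1 and 6 in 5 Gy x4 libraries. Zfp385b, with circles within chr3:64275041-64500014, had 0, 0, 1 and 0 in control libraries, 1, 7, 6 and 2 in 5 Gy x2 libraries and 2, 3, 7 and 2 in 5 Gy x4 libraries. For Zfp385b every 5 Gy x4 library lay above the control libraries, while for Zfp385d the groups overlapped.

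Zfp521 and Zfp423 are paralogous factors with many fingers that act in mesenchymal cells, where Zfp423 promotes and Zfp521 opposes commitment to fat cells in mice. Zfp521, with circles within chr18:5032258-5314883, had 1, 1, 2 and 0 circles in control libraries, 2, 2, 4 and 0 in 5 Gy x2 libraries and 6, 5, 6 and 3 in 5 Gy x4 libraries. Zfp423, with circles within chr19:20148250-20395031, had none in any control library, 0, 6, 3 and 1 in 5 Gy x2 libraries and 5, 5, 6 and 1 in 5 Gy x4 libraries. All 27 circles of Zfp423 were intronic, each found in 1 library, and the 5 Gy x4 libraries lay above the control libraries for both genes. Zfp423 is named, as is Zfp827, because of its total of calls, all of them in irradiated skin. That total largely fixes the ratios that follow, which are a description. They set calls pooled over libraries against 3 calls, the limit that a count of 0 over the control group allows. Spread between libraries is not included, so the ratios are no lower bound. For Zfp423 the number of circles was 5.67-fold this limit in 5 Gy x4 and 3.33-fold in 5 Gy x2 skin. As a share of genic circles the ratios were 1.20 and 1.17.

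Zfp827, whose human counterpart recruits a chromatin remodelling complex to telomeres, showed the same absence in control skin. Its circles within chr19:32415555-32525835 numbered 0 in every control library, 0, 1, 3 and 0 in 5 Gy x2 and 2, 4, 7 and 3 in 5 Gy x4 libraries. Pooled over libraries, the number was 5.33-fold the same control limit in 5 Gy x4 and 1.33-fold in 5 Gy x2 skin. As a share of genic circles the ratio to the limit was 1.13 in 5 Gy x4 and 0.469 in 5 Gy x2 skin. These ratios, like those of Zfp423, bound no increase. Zfp407, with circles within chr18:81077798-81417949, had 1, 0, 1 and 0 in control libraries, 5, 1, 3 and 0 in 5 Gy x2 libraries and 3, 7, 5 and 2 in 5 Gy x4 libraries, where again every 5 Gy x4 library lay above the control libraries.

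Zfp532 was the most evenly spread, with 1, 1, 2 and 2 circles in control, 1, 1, 3 and 1 in 5 Gy x2 and 1, 1, 2 and 4 in 5 Gy x4 libraries, within chr18:61260470-61366920. Its human counterpart is a fusion partner of NUTM1 in NUT carcinoma. Zfp536, a repressor of neuronal differentiation, had 4 calls in control skin, 6 in 5 Gy x2 skin and 9 in 5 Gy x4 skin. Zfp831 had 4, 9 and 7 calls in that order of groups, Zfp618 had 1, 7 and 10, and Zfp704 had 2, 5 and 9. Zfp292, a factor first described as an activator of growth hormone expression, had 1, 8 and 6 calls, which came from 5 libraries.

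**Figure D4:**
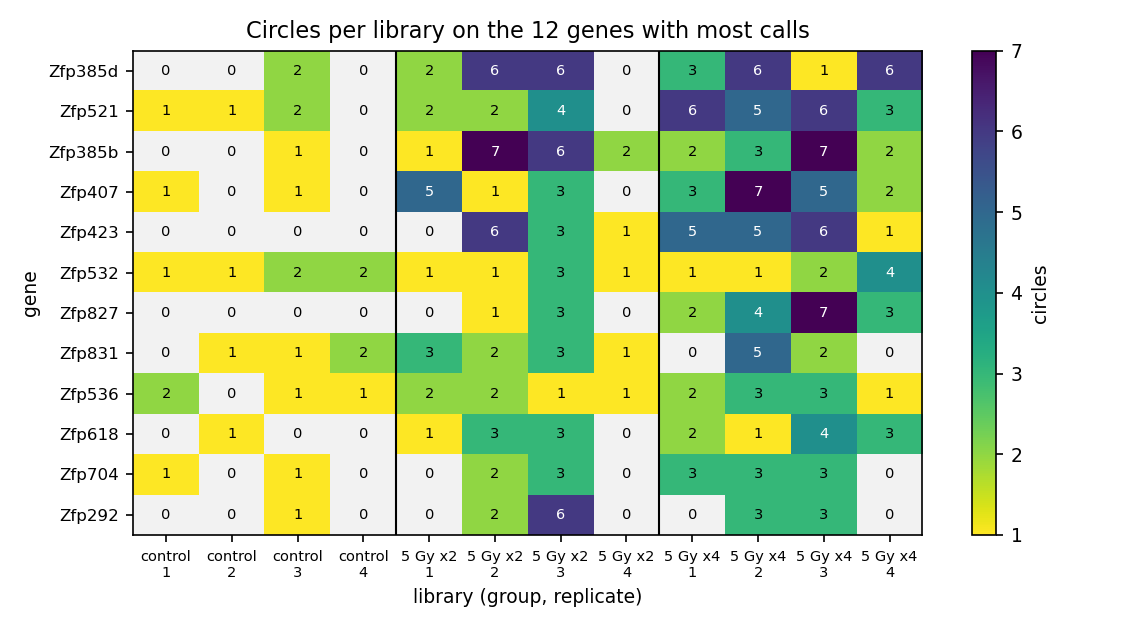
Circles per library on the 12 zinc finger genes with most calls (rows) in the 12 libraries (columns, in dose order), with the number in each cell and 0 in grey. Zfp423 and Zfp827 are at 0 in all 4 control libraries, and Zfp532 has a circle in every library.

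Among genes with 10 or more calls, every 5 Gy x4 library exceeded every control library in number of circles for 7 of 18 zinc finger genes, and for 497 of 2503 genes (19.9%). The 7 were Zfp385b, Zfp407, Zfp423, Zfp521, Zfp622, Zfp629 and Zfp827. For 5 Gy x2 the count was 0 of 18, against 82 of all 2503 genes (3.28%). These numbers include the difference between groups in the number of circles listed, and the separation was counted after the data were seen. The filter counts calls over all groups, and Zfp423 and Zfp827 passed it through irradiated libraries alone. Genes were thus partly selected by the libraries in which they are then higher, so the counts are not a result about zinc finger genes.

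Relative to library size, no zinc finger gene passed the test of circles per gene. The usual expression filter of edgeR left 14 genes, none of them a zinc finger gene, of which the quasi-likelihood F test called 6 (42.9%) for 5 Gy x2 and 9 (64.3%) for 5 Gy x4 against control, and 0% for 5 Gy x4 against 5 Gy x2. With all 2503 genes of 10 or more circles, scaled by library size alone, edgeR called 0.999% of genes for 5 Gy x4 and 0.32% for 5 Gy x2 against control at an adjusted p of 0.05, and 0 between the doses. Among the 18 zinc finger genes tested it called 0 in each comparison. At an unadjusted p under 0.05 it had 5 of them for 5 Gy x4, 3 for 5 Gy x2 and 0 between the doses. Beside these stood 285, 198 and 98 of all 2503 genes, in the same order. DESeq2 called 0 zinc finger genes in each comparison too. On simulated counts of 5 Gy x4 against control, the same edgeR fit called 9 of 143 genes given a 4-fold change (6.29%). A gene that was not called may therefore still differ between groups. The median log2 fold change of the 18 genes was 0.19 for 5 Gy x4 and 0.68 for 5 Gy x2 against control, beside 0.22 and 0.08 for all genes tested.

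The largest fitted values belonged to Zfp423 and Zfp827. For Zfp423 edgeR gave a log2 fold change of 4.43 ± 1.83 (SE) in 5 Gy x4 (adjusted p = 0.334) and 4.40 ± 1.89 in 5 Gy x2 (adjusted p = 0.476) against control. For Zfp827 it gave 4.35 ± 1.86 in 5 Gy x4 (adjusted p = 0.352) and 3.18 ± 2.17 in 5 Gy x2 (adjusted p = 0.536). Both genes are at 0 in control skin, so these fits depend on the prior count and are no bound. For Zfp385b it gave 1.42 ± 1.22 in 5 Gy x4 and 2.31 ± 1.12 in 5 Gy x2 (adjusted p = 0.612 and 0.516). The log2 fold changes were 0.72 and 1.24 for Zfp385d, 0.80 and 0.63 for Zfp407, and 0.30 and 1.35 for Zfp292, in 5 Gy x4 and 5 Gy x2. Of the 5 genes with an unadjusted p under 0.05 for 5 Gy x4, 3 had negative values: Zfp189 at −2.03 ± 1.03, Zfp318 at −1.83 ± 0.91 and Zfp532 at −1.72 ± 0.83 (edgeR adjusted p = 0.419 each).

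By chromosome, zinc finger circles were placed differently from other genic circles. Chromosome 18 held 113 of the 716 entries (15.8%), against 3.06% of other genic circles, and they lay on 9 genes. Zfp521 gave 30 of these entries, Zfp407 27, Zfp532 19, Zfp608 11, and Zfp236 and Zfp516 9 each; Zfp516 activates brown fat genes in mice. Chromosome 19 held 52 entries (7.26%, against 2.56%), of which 27 were on Zfp423 and 20 on Zfp827. Chromosome 1 held 111 entries (15.5%, against 10.9%), spread over 37 genes. Chromosome 13 held 3 (0.419%, against 4.16%). These shares are a description without a test, and the lengths of the genes were not used.

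Few zinc finger circles recurred. In 1 library only were 684 of the 716 (95.5%, against 95.9% of other genic circles), in 2 libraries 24, and in more than 2 libraries 8. The most recurrent was a 281 bp intronic circle of Zfp318 at chr9:16972518-16972798, found in 10 libraries. Zfp318 controls the switch between immunoglobulin M and D transcripts in mouse B cells. The circle had 20, 31, 67 and 68 supporting reads in control libraries, 40, 10, 0 and 10 in 5 Gy x2 libraries and 5, 15, 16 and 0 in 5 Gy x4 libraries. All 4 control values lay above all 5 Gy x4 values, in reads that are not adjusted for depth.

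A 375 bp intronic circle of Zfp189 at chr5:64793744-64794118 was found in 6 libraries, 3 of control, 2 of 5 Gy x2 and 1 of 5 Gy x4 skin, with 246 supporting reads. An 844 bp intronic circle of Zfp536 at chr1:93882431-93883274 was found in 2 libraries of each group, and a shorter one of 547 bp within it in 2 control libraries with 130 reads. A 2384 bp intronic circle of Zfp831 at chr3:172741983-172744366 had the most reads of any zinc finger circle, 436, of which 342 were in control replicate 4. Zinc finger genes had 682 supporting reads in that library, where their share of genic reads was 2.00%, against 0.735% to 0.905% in the other control libraries. The read share was 0.729 ± 0.167% in 5 Gy x4 and 0.792 ± 0.255% in 5 Gy x2 skin, against 1.11 ± 0.599% in control skin (SD, n = 4 each, exact permutation p = 0.229 and 0.457).

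Long circles were rare. The longest were an 11114 bp circle of Zfp93 in a single 5 Gy x2 library and an 8449 bp exonic circle of Zfp281, a factor that restrains pluripotency programmes in mouse embryonic stem cells. The Zfp281 circle had 4 reads in 5 Gy x2 replicate 2 and 39 and 10 in 5 Gy x4 replicates 1 and 2, and was found in no control library. A 7158 bp circle of Zfp64 was found in a single 5 Gy x4 library, and a 2059 bp circle of Zfp618 in 1 control library. The remaining circles found in 3 libraries were a 349 bp intronic circle of Zfp879 and a 475 bp exonic circle of Zfp428, the second shared with an unnamed gene model.

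**Figure D5:**
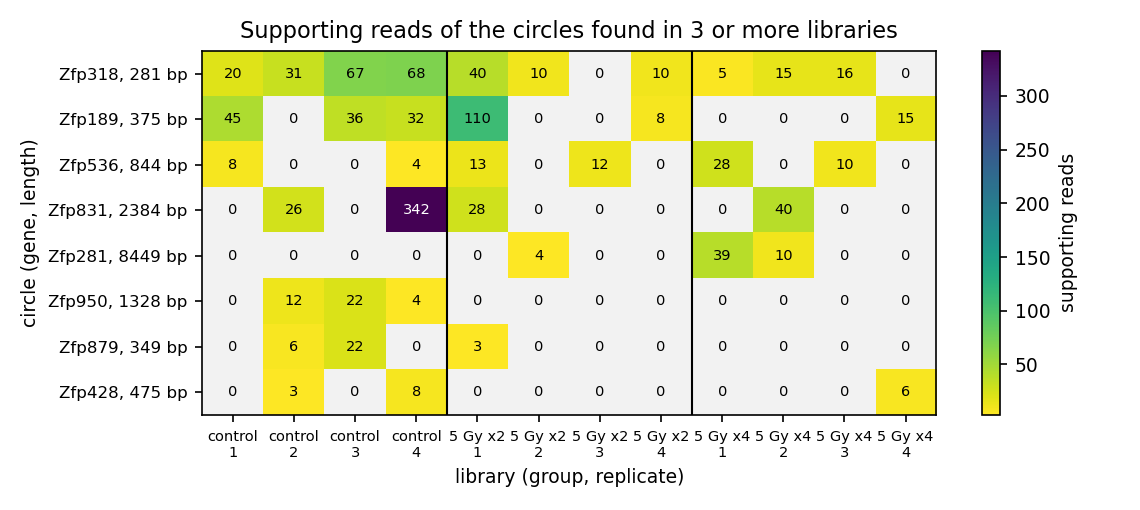
Supporting reads of the 8 zinc finger circles found in 3 or more libraries (rows, with gene and length) in the 12 libraries (columns, in dose order), with 0 in grey. The Zfp318 circle is present in 10 libraries, and the Zfp950 circle in 3 control libraries and no irradiated one.

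Different circles seldom shared a place. Merging overlapping entries gave 677 sites, of which 646 held 1 entry and 31 held more. Found in 3 or more libraries were 12 sites. A site of Zfp536 with 2 entries was found in 7 libraries, 3 of control, 2 of 5 Gy x2 and 2 of 5 Gy x4 skin. The sites of Zfp831, Zfp36l3 and Zfp879, with 5, 4 and 4 entries, were found in 6 libraries each. At Zfp36l3, 4 of the 5 exonic entries overlapped in 1 site without being the same circle.

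The partners through which KRAB zinc finger proteins silence DNA were counted as well. Of 24 genes listed for TRIM28, its heterochromatin enzymes, the HUSH complex and DNA methyltransferases, 20 had a circle, 86 entries in all. Control skin gave 7 of their calls among 10463 genic calls, 5 Gy x2 skin 34 among 29731 and 5 Gy x4 skin 48 among 49366. Pphln1, a subunit of HUSH, had 11 calls, the remodeller Smarcad1 10, and the de novo methyltransferases Dnmt3b and Dnmt3a 9 and 8. Of the 20 genes 2 reached 10 circles, beside 18.6% of all genes outside the zinc finger set, and edgeR called neither in any comparison. Of the other C2H2 families 21 genes were tested, and Zkscan7, a gene named here after its values were seen, was lower relative to library size in 5 Gy x4 than in control skin. It had 1, 1, 0 and 1 circles in 5 Gy x4 libraries, against 1, 2, 2 and 3 in control libraries, and edgeR gave a log2 fold change of −3.33 ± 0.88 (SE, adjusted p = 0.0232). With TMM and with DESeq2 no gene of this list was called.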

How the data were processed

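Circle-seq libraries of rat back skin were analysed from the tables the authors deposited. Per the labels' protocols, circular DNA was enriched with a plasmid kit, treated with exonuclease, cleaned on beads, and 50 ng was made into libraries with a transposase kit. The deposited values are counts, whole-number supporting reads per listed circle with no normalization. Per the submitters' processing notes BWA, Picard and bedtools were used, on build rn6; of the circle caller and of the merging of circles across libraries, the method is not given in the sources used. Starts are counted from 1.

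Members were matched by symbol and counted at 1 or more supporting reads. Groups were compared with two-sided exact permutation tests over 70 splits (Benjamini-Hochberg over 18 tests), and zinc finger with other genic circles by sign flips within libraries over 4096 flips (5 tests), in Python 3.11.15 with scipy 1.17.1. Circles per gene were tested with edgeR 4.0.16 in R 4.3.3 (quasi-likelihood F test, 12 libraries, group only), checked on simulated data. The planned filter left no member, so genes with at least 10 circles were fitted with library size alone, chosen after the data were seen because TMM put the median of all genes off 0; DESeq2 1.42.0 was an alternative. Other alternatives covered circle label, length, single-gene annotation, circles of 1 library, equal supporting reads and each library left out. For 1 of the 716 members the counts over libraries fell short of the total in the table. Named genes were the 12 with most calls, the recurrent, longest and best supported circles, the 6 with the lowest p under the laxer filter with TMM, those with most exonic calls, and 4 per list; others were named after their values were seen. Members and lists were chosen with earlier results of these data known. Whether replicate numbers pair libraries could not be told, since correlations of these low counts lay near 0 for all pairs. Same-numbered pairs correlated at −0.0215 to 0.101, with 1 of 12 above 0.1. Other pairs correlated at −0.0557 to 0.0641, with 0 of 36 above 0.1.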

Additional observations from a re-analysis of the deposited data

Results flagged for a closer look

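Within groups of 4 libraries, 3 values stood apart from the rest of their group by Dixon's criterion, which chance meets in about 1 of 20 groups; 33 groups were examined. Control replicate 4 had 2.00% of genic supporting reads on zinc finger genes, a gap of 0.866 of the control range, and 342 of its 682 zinc finger reads lay on the 2384 bp circle of Zfp831. In the same library zinc finger circles were 179 bp longer in the median than other genic circles, a gap of 0.894 of the range. In 5 Gy x2 replicate 1 the exonic share of zinc finger circles exceeded that of other genic circles by 7.05 points, a gap of 0.841 of the range.

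The excess of exonic circles on zinc finger genes over other genes differed between groups, by −22.7 points for 5 Gy x2 and −22.5 points for 5 Gy x4 against control (exact permutation p = 0.0286 each). Neither passed after adjustment (adjusted p = 0.075). The test was added after the data were seen, and its p was fixed by the separation of both exonic shares in opposite directions. The number of circles per library and the share of the 330 to under 420 bp class differed between the same groups, and their part in the result was not tested beyond the length classes given above.

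The larger circles listed apart as ecDNA were not used in the comparisons. Of 157 such circles, 20 (12.7%) carried a zinc finger gene, with lengths from 109996 to 9380201 bp and a median of 5781825.5 bp. Circles of this length can span many genes, and no share for other genes was computed, so the percentage shows no enrichment. Control libraries held 0, 5, 4 and 1 of these 20 circles, 5 Gy x2 libraries 4, 4, 1 and 3, and 5 Gy x4 libraries 0, 6, 5 and 1. The mean was 3 ± 2.94 in 5 Gy x4 and 3 ± 1.41 in 5 Gy x2 skin, against 2.5 ± 2.38 in control skin (SD, n = 4 each, exact permutation p = 0.83 and 0.914).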

How the results depend on the processing

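Counts limit what can be tested for single zinc finger genes: 18 of 172 reached 10 calls. Of 712 alternative values, 655 kept their direction and side of the threshold. The cause of the others was not tested. Many values could hardly change side, so this count does not measure robustness. Before adjustment, the smallest exact permutation p is 0.0286 for 4 libraries against 4 and 0.0571 for 4 against 3. Some counts of zinc finger genes called came from fits that tested none of them. Ranges over libraries left out cover the libraries of the groups compared. The zinc finger share of genic circles in 5 Gy x2 minus control turned to 0.0273 with hconf circles, 0.000326 with circles of a single gene, 0.117 with circles of 330 to under 420 bp and 0.113 with circles of 1 library. In 5 Gy x4 minus control it turned to 0.150 and 0.102 under the last pair of settings, and in 5 Gy x4 minus 5 Gy x2 to 0.0331 with 330 to under 420 bp. Leaving out each library gave −0.141 to 0.0604, −0.163 to 0.0380 and −0.0832 to 0.0135 for the 3 pairs in the same order; without control replicate 4 the first pair of values was positive.

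Per 1000 supporting reads, 5 Gy x4 minus 5 Gy x2 was −0.00873 circles and −0.0332 genes. Against control, zinc finger genes with a circle then differed by 0.0365 for 5 Gy x4 and 0.0697 for 5 Gy x2. The exonic share of zinc finger circles in 5 Gy x4 minus 5 Gy x2 turned to −2.34 with hconf circles, −0.586 with single genes and −1.49 with other lengths. Its excess over other genic circles was 10.96 points within 330 to under 420 bp (permutation p = 0.0117, adjusted p = 0.0586), no longer past the threshold. This mean covers control and irradiated libraries, and the excess was negative in some irradiated ones. The 5 Gy x4 minus 5 Gy x2 difference of that excess turned to −2.06 with other lengths, −0.392 with circles of 1 library, −1.20 with single genes, −3.81 with hconf and −0.267 under 1000 bp, and ran from −0.291 to 0.983 when each library was left out. With circles of 1 library, the read share against control was 0.118 for 5 Gy x4 and 0.214 for 5 Gy x2, and reads per circle differed by −0.218. Leaving out each library gave −0.163 to 0.0154 for the read share in 5 Gy x4 minus 5 Gy x2, and −0.711 to 0.956 for reads per circle, negative without control replicate 4.

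With the planned filter edgeR called 6 of 14 genes for 5 Gy x2; DESeq2 called 0 of the 14, the laxer filter with TMM 0 of 2503, and fits with each library left out, which tested 16 to 27 genes, 0 to 11. For 5 Gy x4 it called 9 of 14, against 4 with DESeq2, 23 of 2503 with the laxer filter and TMM, and 5 to 12 with a library left out, or 14 without 5 Gy x2 replicate 1 or 4, which enter the shared fit. Among the 2503 genes the 5 Gy x2 count of 8 was 0 with TMM, 0 with DESeq2 and 5 with the replicate block, and 2 to 8 when each library was left out. The 5 Gy x4 count of 25, 1 higher and 24 lower, was 5 with DESeq2, 5 without control replicate 4 and 5 to 26 over libraries left out; TMM called 23, 21 higher and 2 lower. TMM moved the median log2 fold change of all genes to 1.28 for 5 Gy x4 and 0.97 for 5 Gy x2, and that of zinc finger genes to 1.24 and 1.53. No zinc finger gene was called by edgeR or DESeq2 under any of these. Zfp292 in 5 Gy x4 was −0.30 with DESeq2 and −0.22 to 3.10 over libraries left out, and Zfp407 in 5 Gy x2 −0.13 to 1.29. The replicate block, from numbers not shown to pair the libraries, also gave 8 in place of 9 of the 14 genes for 5 Gy x4. Of the 2503 genes it gave 24 in place of 25, and it called no zinc finger gene. With the block, 5 Gy x4 minus control in circles was 79.25.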
